A study of Mus musculus with 12 samples.

Results

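The core circadian clock of the arcuate nucleus (ARC) was described through 10 genes, *Clock*, *Arntl*, *Per1*, *Per2*, *Per3*, *Cry1*, *Cry2*, *Nr1d1*, *Nr1d2* and *Dbp*. They were chosen by name, as the rows of the deposited expression table that carry these symbols, and make up 10 of its 38283 genes. Each symbol stood on 1 row, and all 10 genes were among the 14017 with a mean of at least 1 FPKM over all libraries, which were the genes tested. FPKM scales the fragments of a gene to the length of its transcripts and to the depth of the library, so that different genes can be set side by side. The libraries came from 5 wild-type (WT) mice and 7 mice homozygous for R299Q γ2 (Homo), all freely fed C57BL/6 males aged 8 weeks under 12 hr of light and 12 hr of dark. R299Q was knocked into the mouse's own *Prkag2* gene, which encodes the γ2 subunit of AMPK, so the change was carried by every cell with γ2 and was not limited to the ARC or to a cell type. The hour at which the mice were killed is not given in the sources used here, and whether it was matched between genotypes is not known.

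The clock is a feedback loop of transcription that runs in nearly every cell. CLOCK and BMAL1 (the product of *Arntl*) bind E-boxes and drive the *Per* and *Cry* genes, whose proteins return to the nucleus and repress them. The same pair drives *Nr1d1* and *Nr1d2*, which encode the REV-ERB repressors of *Arntl*, and *Dbp*, an output factor that acts through D-boxes. In most tissues *Arntl* RNA therefore peaks at the opposite time of day to *Dbp* and the REV-ERB genes, with the *Per* genes following them. AMPK is known to phosphorylate CRY1 and to favour its breakdown, and the ARC, the home of the AgRP and POMC neurons that regulate feeding, keeps a daily rhythm of its own that takes its time from the suprachiasmatic nucleus and from meals.

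Stretches with the letters of E-boxes and D-boxes are shown because the comparisons between libraries below set activators beside their targets. They are matches of letters only, and whether a clock protein binds or acts at them was not measured here. RefSeq promoter windows on GRCm38.p6, from 250 bases before to 50 bases after each start site, were found for 9 of the 10 genes (13 windows, since some genes have several starts), and *Per2* was not among them. Each window was searched on both strands for the E-box CACGTG, for its variant CACGTT, which is printed below as read from the other strand, for the D-boxes TTATGTAA and TTATGCAA, and for the ROR response element that the REV-ERB proteins also bind. The E-box was held by 7.15% of the 32851 windows in the table, the variant by 4.68%, a D-box by 1.66% and the ROR response element by 0.773%. By gene, the E-box was present in 2 of the 9 genes (8.09% of all genes with windows) and the variant in 3 (5.44%). A D-box was present in 2 (1.98%) and the ROR response element in 1 (0.918%). Matches of any kind were present in 6 of the 9 genes, and the share of all genes with any match was not computed. None of these letters was found in the windows of *Clock*, *Nr1d2* or *Dbp*, which says nothing of sites elsewhere in the gene. The stretches run 5′ to 3′ on the strand of the gene, with the matched letters in capitals.
*Per1* E-box, beginning 166 bases before the start site, chr11:69098763-69098808, plus strand: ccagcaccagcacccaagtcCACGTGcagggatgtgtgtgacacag
*Cry1* E-box, beginning 60 bases before the start site, chr10:85185089-85185134, minus strand: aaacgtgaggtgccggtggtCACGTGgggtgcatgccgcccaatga
*Cry2* E-box variant, beginning 166 bases before the start site, chr2:92434210-92434255, minus strand: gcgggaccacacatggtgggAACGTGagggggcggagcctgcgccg
*Nr1d1* E-box variant, beginning 28 bases before the start site, chr11:98775380-98775425, minus strand: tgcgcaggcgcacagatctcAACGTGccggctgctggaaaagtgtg
*Per1* D-box, beginning 24 bases before the start site, chr11:69098905-69098948, plus strand: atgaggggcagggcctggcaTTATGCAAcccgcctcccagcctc
*Per3* D-box, beginning 205 bases before the start site, chr4:151044843-151044890, minus strand: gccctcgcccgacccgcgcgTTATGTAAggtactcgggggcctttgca
*Per3* D-box, beginning 158 bases before the start site, chr4:151044796-151044843, minus strand: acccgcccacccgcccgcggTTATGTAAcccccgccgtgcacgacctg
*Arntl* ROR response element, 27 bases past the start site, chr7:113207528-113207557, plus strand: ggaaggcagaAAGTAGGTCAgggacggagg
*Cry1* also held the variant beginning 79 bases before its start, in lower case at the left end of the stretch shown.

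The libraries fell into 2 sets that neither the labels nor the study name. WT 1, WT 2 and Homo 1 to Homo 5 listed between 15742 and 16467 genes above 0, and WT 3, WT 4, WT 5, Homo 6 and Homo 7 between 18141 and 18635. The split mixes the genotypes unevenly (2 WT with 5 Homo, and 3 WT with 2 Homo), so each difference is also given within the 7 and within the 5 libraries. Fragment counts were not given, and a rough estimate was made from the smallest steps between low values. Only 7.27% to 30.1% of the values examined fell on such steps, and 7.27% to 13.5% in the 7 libraries with fewer genes. The share that would fall there without any step was not computed, so the estimate is weakly founded. For the median library it gave 52.5 fragments on *Per2*, 69.2 on *Arntl*, 72.5 on *Cry1*, 76.0 on *Dbp* and 364 on *Nr1d1*. All 10 arcuate markers were above 0 in every library, with summed levels of 1303 to 4545 FPKM in WT and 3448 to 5197 FPKM in Homo. Markers of the suprachiasmatic nucleus, the central clock, summed to 19.8 to 405 FPKM in WT and 23.7 to 321 FPKM in Homo. Among them *Avp*, which other hypothalamic neurons also make, ran from 0.916 to 380 FPKM. *Vip* and *Nms* were listed at 0 in 7 and 6 of the 12 libraries, and *Vipr2* in 1. *Prok2*, *Rgs16*, *Six6*, *Lhx1*, *Syt10* and *Grp* were above 0 in every library, with *Syt10* up to 12.5 FPKM and *Grp* up to 16.0. Medians were higher in Homo for *Avp* (12.8 FPKM in WT, 99.0 in Homo), *Nms*, *Prok2*, *Rgs16*, *Six6*, *Vipr2* and *Grp*. They were lower for *Lhx1* and *Syt10*, and 0 in both genotypes for *Vip*. *Prkag2* itself averaged 14.6 FPKM over WT and 14.8 over Homo, and since R299Q is a substitution this level does not check the labels.

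*Nr1d1* was the most abundant of the 10 genes and *Per2* the least, with means over the 12 libraries of 27.2 and 1.47 FPKM. *Nr1d1* was above *Cry2*, the next in order (12.6 FPKM), in 12 of 12 libraries (exact sign-flip permutation p = 0.000488, adjusted p = 0.00439 over the 9 pairs of neighbours). Below them came *Nr1d2* (12.1 FPKM), *Per1* (8.15), *Clock* (7.74), *Dbp* (7.38), *Per3* (4.99), *Cry1* (4.26) and *Arntl* (3.45 FPKM). None of these neighbours, from *Cry2* down to *Arntl*, could be separated by the same test (exact permutation adjusted p between 0.140 and 0.866), so this middle order is loose. *Arntl* was above *Per2* in 10 of 12 libraries (exact permutation adjusted p = 0.0264). The neighbours were set by the means of these same libraries, so these p-values describe the order and are no independent test of it. *Nr1d1* shares exon bases with *Thra* on the opposite strand (48.1 to 115 FPKM), whose part in the level of *Nr1d1* was not tested. Of the 10 genes, 5 lay above the median mean level of all genes tested, 7.57 FPKM.

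No clock gene was called between the genotypes. At an adjusted p under 0.05 (limma, Benjamini-Hochberg over all genes tested) 0 of the 10 genes passed, against 0.00713% of the 14017 genes, which is the single gene *Jarid2*. At an unadjusted p under 0.05 the count was also 0 of 10, against 5.55% of all genes. The genotypes overlapped in all 10 clock genes, against 0.221% of genes whose libraries did not overlap. In Homo 6 of the genes had a higher and 4 a lower mean log2 value, with a median log2 fold change of 0.11 beside -0.0062 over all genes tested. The smallest adjusted p was 0.915. The 95% intervals of the single genes reached from -1.04 to 1.18 on the log2 scale, so changes of up to about that size remained within the scatter of the libraries. Since values were taken as log2(FPKM + 1), changes of low genes such as *Per2* are understated.

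**Figure D1:**
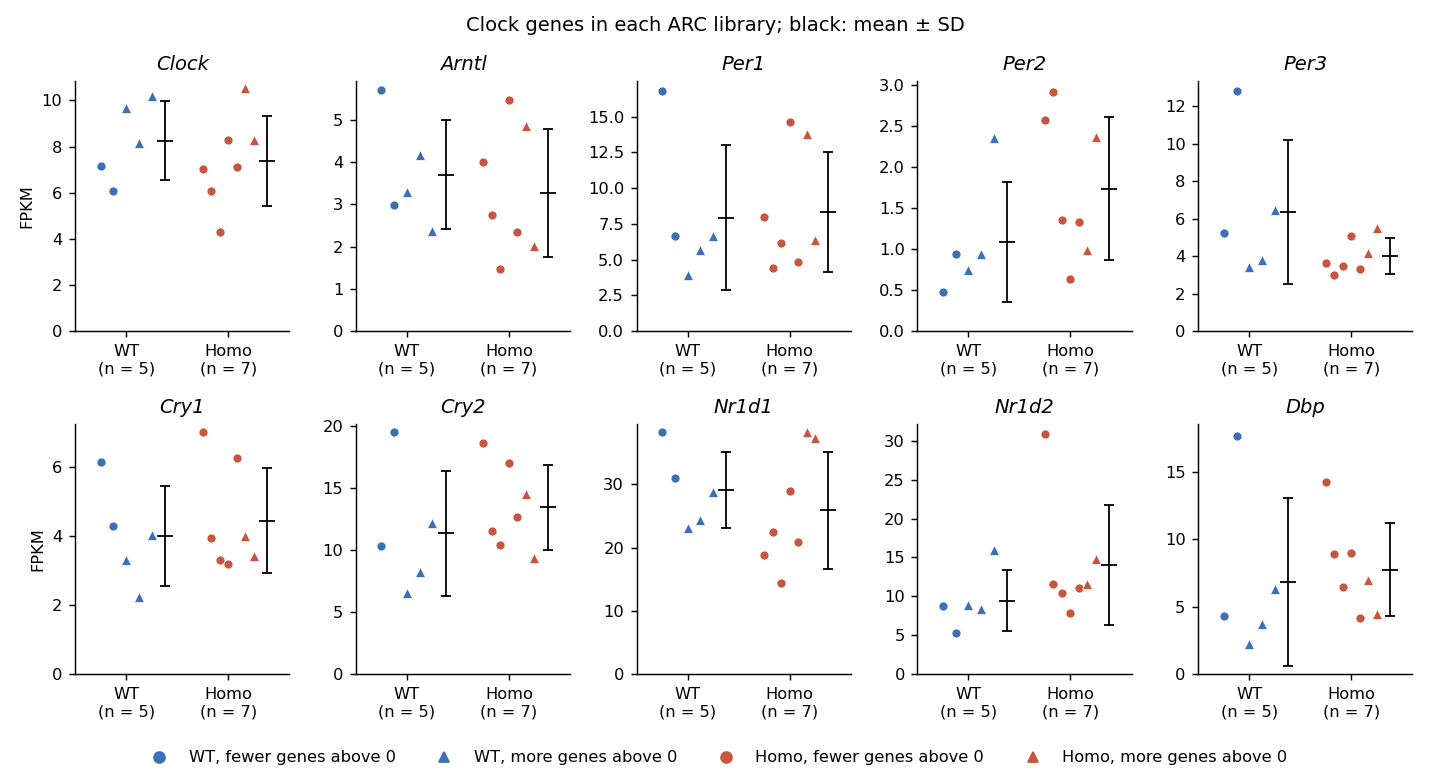
FPKM of the 10 clock genes in each ARC library (y axis from 0), WT (n = 5) in blue and Homo (n = 7) in red, with circles for the 7 libraries with fewer genes above 0, triangles for the 5 with more, and the mean ± SD in black. The genotypes overlap in every panel, single libraries stand high in *Per1* (WT 1, 16.8), *Dbp* (WT 2, 17.7), *Per3* (WT 2, 12.8) and *Nr1d2* (Homo 1, 30.8), and the 2 red triangles of *Nr1d1* lie above the blue triangles while the red circles lie below the blue circles.

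The differences of *Clock* and *Arntl*, the activators, were small beside the scatter of the libraries. *Clock* (ENSMUSG00000029238, chromosome 5 of GRCm38 from 76209868 to 76304792) measured 7.14, 6.10, 9.67, 8.16 and 10.2 FPKM across WT 1 to WT 5, and between 4.28 and 10.5 FPKM in Homo with a median of 7.11. Its means were 8.25 ± 1.71 FPKM for WT (SD, n = 5) against 7.37 ± 1.96 FPKM for Homo (SD, n = 7), giving a log2 fold change of -0.16 with an SE of 0.22 (limma adjusted p = 0.943), and -0.034 in the 7 libraries and 0.0069 in the 5. Between the library sets *Clock* differed more than between the genotypes. It averaged 6.57 FPKM in the 7 libraries with fewer genes and 9.37 FPKM in the 5 with more, a log2 difference, with genotype in the model, of 0.46 (limma unadjusted p = 0.0392, adjusted p = 0.559). *Clock* was the single one of the 10 genes past an unadjusted p of 0.05 for the library set, against 8.42% of all genes tested. The set difference of *Dbp* was larger but less certain. It averaged 9.25 FPKM in the 7 libraries and 4.77 FPKM in the 5, a log2 difference of -0.71 (limma unadjusted p = 0.0810, adjusted p = 0.656). *Arntl* (ENSMUSG00000055116, chromosome 7 from 113207465 to 113314126) measured 5.70, 2.98, 3.29, 4.17 and 2.37 FPKM across WT 1 to WT 5, and ran from 1.47 to 5.46 FPKM in Homo with a median of 2.74. The lowest library, Homo 3, and one near the top, Homo 4, were thus of the same genotype. For *Arntl* the log2 fold change of -0.18 had an SE of 0.29 (limma adjusted p = 0.960; exact permutation p = 0.521), with -0.37 in the 7 libraries and -0.0040 in the 5.

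The 3 *Per* genes encode the repressors that time the loop, and none of them could be separated between the genotypes. *Per1* (ENSMUSG00000020893, chromosome 11 from 69095217 to 69109960), which also answers acutely to glucocorticoids and neuronal activity, measured 16.8, 6.62, 3.90, 5.68 and 6.68 FPKM across WT 1 to WT 5, while Homo 1 to Homo 7 gave 7.99, 4.45, 6.13, 14.6, 4.81, 13.8 and 6.36 FPKM. High libraries (WT 1, Homo 4 and Homo 6) occurred in both genotypes and in both library sets. Its log2 fold change of 0.092 had an SE of 0.35 (limma adjusted p = 0.990), and its sign differed between the sets, at -0.55 in the 7 libraries and 0.73 in the 5. *Per2* (ENSMUSG00000055866, chromosome 1 from 91415982 to 91459324) measured 0.481, 0.937, 0.743, 0.939 and 2.36 FPKM across WT 1 to WT 5, while Homo 1 to Homo 7 gave 2.57, 2.93, 1.36, 0.638, 1.33, 0.986 and 2.37 FPKM. In 6 of 7 Homo libraries *Per2* was above the WT median, yet WT 5 was level with Homo 7, and Homo 1 and Homo 2 were higher than both. Its log2 fold change of 0.38 had an SE of 0.32 (limma adjusted p = 0.919; exact permutation p = 0.178), and it kept this sign within both sets (0.64 and 0.20). *Per3* (ENSMUSG00000028957, chromosome 4 from 151003652 to 151044665) had the largest difference downward of the 10 genes. It measured 5.26, 12.8, 3.42, 3.79 and 6.48 FPKM across WT 1 to WT 5 and between 2.99 and 5.50 FPKM in Homo, with a median of 3.62. The WT mean of 6.36 ± 3.82 FPKM (SD, n = 5) rested largely on WT 2, and the log2 fold change of -0.44 (SE 0.28, 95% interval -1.04 to 0.15, limma adjusted p = 0.915; exact permutation p = 0.114) was -0.18 without that library. In the 7 libraries it was -1.004 (95% interval -1.89 to -0.11, limma unadjusted p = 0.0313, adjusted p = 0.815), where WT 2 is 1 of 2 WT libraries, and in the 5 it was 0.10.

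*Cry1* and *Cry2* encode the partners of the PER proteins, and CRY1 is the one known as an AMPK substrate. *Cry1* (ENSMUSG00000020038, chromosome 10 from 85131700 to 85185064) measured 6.14, 4.28, 3.31, 2.24 and 4.03 FPKM across WT 1 to WT 5 and between 3.20 and 6.99 FPKM in Homo, with a median of 3.93. Its log2 fold change of 0.13 had an SE of 0.25 (limma adjusted p = 0.973), with overlapping ranges and values of -0.15 in the 7 libraries and 0.19 in the 5. RNA levels do not bear on how fast the CRY1 protein is broken down. *Cry2* (ENSMUSG00000068742, chromosome 2 from 92403646 to 92434043) measured 10.3, 19.5, 6.58, 8.24 and 12.2 FPKM across WT 1 to WT 5, while Homo 1 to Homo 7 gave 18.6, 11.6, 10.4, 17.1, 12.7, 14.5 and 9.37 FPKM. The top library was WT 2 and the bottom one WT 3, so the WT libraries spanned the Homo ones. For *Cry2* the log2 fold change of 0.28 had an SE of 0.26 (limma adjusted p = 0.923; exact permutation p = 0.295). It was -0.049 in the 7 libraries and 0.38 in the 5, 0.48 without WT 2 and 0.12 without WT 3.

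*Nr1d1*, which encodes REV-ERBα, was lower in Homo in 1 library set and higher in the other, with neither difference past the correction over all genes. *Nr1d1* (ENSMUSG00000020889, chromosome 11 from 98767932 to 98775333) measured 38.1, 31.0, 23.2, 24.4 and 28.7 FPKM across WT 1 to WT 5, while Homo 1 to Homo 7 gave 18.8, 22.4, 14.5, 29.0, 20.9, 38.2 and 37.3 FPKM. Among the 7 libraries with fewer genes both WT libraries (31.0 and 38.1) were above all 5 Homo libraries (14.5 to 29.0), a log2 fold change of -0.71 (limma unadjusted p = 0.0443, adjusted p = 0.815). Among the 5 libraries with more genes both Homo libraries (37.3 and 38.2) were above all 3 WT libraries (23.2 to 28.7), a log2 fold change of 0.56 (limma unadjusted p = 0.0434, adjusted p = 0.885). The difference between the sets was 1.27 on the log2 scale (limma interaction, unadjusted p = 0.00669, adjusted p = 0.876 over all genes). Over all 12 libraries these parts nearly cancelled, giving a log2 fold change of -0.21 with an SE of 0.25 (limma adjusted p = 0.927). Non-overlap in such small sets was common. In the 7 libraries 2 clock genes, *Nr1d1* and *Per3*, did not overlap, against 9.35% of all genes, and in the 5 libraries 1 gene, *Nr1d1*, against 21.1%. Non-overlap in opposite directions in both sets was met by *Nr1d1* alone of the 10 genes, against 1.09% of all genes, and an interaction p under 0.05 by *Nr1d1* alone, against 5.18%. *Nr1d1* and *Thra*, a thyroid hormone receptor gene on the opposite strand, share 263 exon bases, 8.55% of those of *Nr1d1*, and whether reads were counted by strand is not given in the sources used here. In the 7 libraries *Thra* was below WT in every Homo library as well (58.8 to 68.0 FPKM against 75.6 and 115 FPKM, log2 fold change -0.57, limma unadjusted p = 0.0337), a gap met by 9.35% of all genes. In the 5 libraries *Thra* overlapped between the genotypes (48.1 to 84.2 FPKM in WT, 59.2 and 76.6 FPKM in Homo, log2 fold change 0.16), and the part of *Thra* in the *Nr1d1* values was not tested.

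*Nr1d2*, which encodes the related repressor REV-ERBβ, had the largest difference upward of the 10 genes, and it too was within the scatter. *Nr1d2* (ENSMUSG00000021775, chromosome 14 from 18204054 to 18239127) measured 8.80, 5.25, 8.92, 8.43 and 15.9 FPKM across WT 1 to WT 5, while Homo 1 to Homo 7 gave 30.8, 11.5, 10.4, 7.91, 11.1, 11.6 and 14.8 FPKM. In 6 of 7 Homo libraries it was above the WT median, and Homo 1 stood far above the rest. Its log2 fold change of 0.48 had an SE of 0.31 (95% interval -0.18 to 1.13, limma adjusted p = 0.915; exact permutation p = 0.184), with the same sign in the 7 (0.81) and in the 5 libraries (0.27), and it was 0.28 without Homo 1. The REV-ERB genes thus had opposite signs between the genotypes over all libraries, but the difference of either was not distinguishable from 0.

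*Dbp*, an output of the loop with one of the strongest daily rhythms in most tissues, varied most of the 10 genes between libraries. *Dbp* (ENSMUSG00000059824, chromosome 7 from 45705088 to 45710203) measured 4.33, 17.7, 2.28, 3.70 and 6.34 FPKM across WT 1 to WT 5, while Homo 1 to Homo 7 gave 14.2, 8.94, 6.47, 8.97, 4.15, 7.02 and 4.49 FPKM. The highest and the lowest library, WT 2 and WT 3, were both WT and differed 7.75-fold. Its log2 fold change of 0.35 had an SE of 0.39 (limma adjusted p = 0.925; exact permutation p = 0.439), with -0.15 in the 7 libraries and 0.46 in the 5, and it was 0.73 without WT 2 and 0.10 without WT 3. Within genotypes the SD of *Dbp* was 0.73 on the log2 scale, above that of 74.6% of the genes tested, followed by *Per1* (0.64, above 66.6%) and *Nr1d2* (0.55, above 55.6%). The other 7 clock genes varied less than the median gene (0.52), and *Clock* had the smallest SD of the 10 (0.32, above 14.2% of genes). The added pseudocount compresses low genes, and by the ratio of the highest to the lowest library *Per2* (6.09) came next to *Dbp*, ahead of *Nr1d2* (5.87) and *Per1* (4.31).

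Within the library sets the signs of the 10 genes differed, as did those of the whole table. In the 7 libraries with fewer genes 2 of the 10 clock genes were higher in Homo (*Per2* and *Nr1d2*), beside 40.1% of all genes tested, and in the 5 libraries 9 of 10, beside 64.6%. Opposite signs in the sets were seen in 7 of the 10 genes and in 50.9% of all genes. With the library set as a further term in limma the signs of the fit over all libraries were kept in 10 of 10 genes. The log2 fold changes ran from -0.50 (*Per3*) to 0.57 (*Nr1d2*). Some became smaller, with *Clock* at -0.015, *Cry1* at 0.0047, *Per1* at 0.032, *Dbp* at 0.13, *Nr1d1* at -0.13 and *Cry2* at 0.15. Those of *Arntl*, *Per2*, *Per3* and *Nr1d2* became larger in size. The smallest exact permutation p within sets was 0.119 (*Per3*). The smallest p these exact tests allow is 0.0013 over all libraries and 0.0048 within sets.

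**Figure D2:**
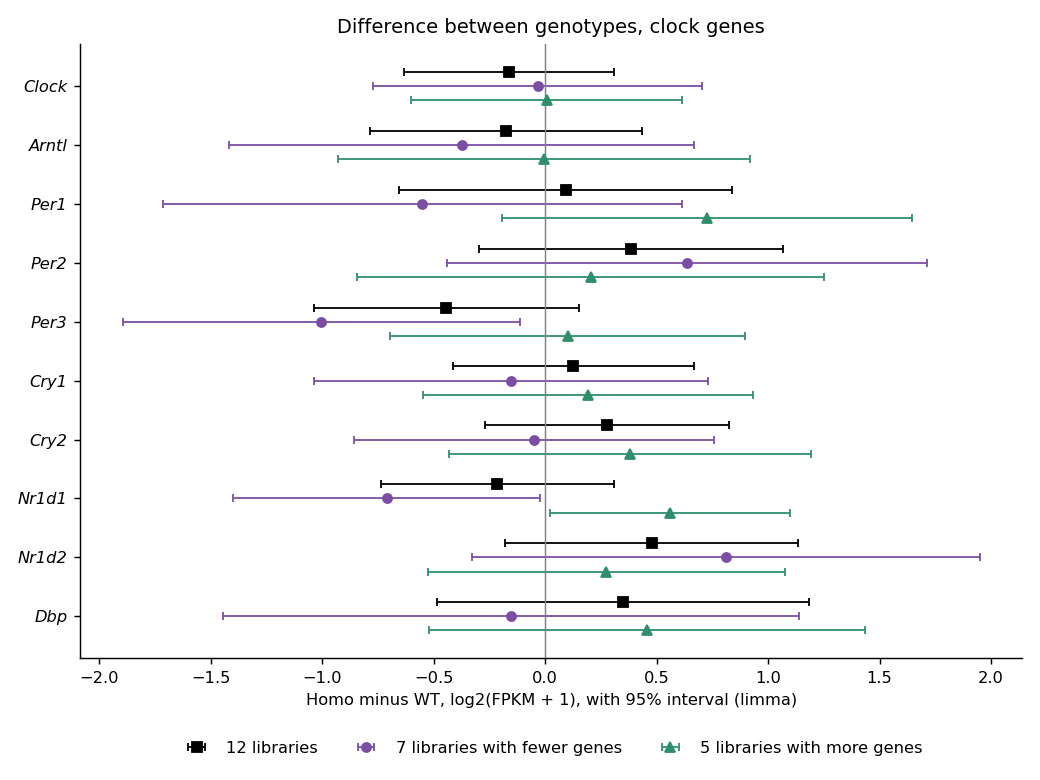
Difference between the genotypes (Homo minus WT, on the log2(FPKM + 1) scale, x axis) for each clock gene with its 95% interval from limma, over all 12 libraries (black squares), the 7 with fewer genes above 0 (purple circles) and the 5 with more (green triangles). All black intervals include 0, and the purple and green values of *Nr1d1* lie on either side of it (-0.71 and 0.56).

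The relations of the clock genes between libraries were read with *Arntl* first, set against the genes that its product drives. For *Arntl* and *Dbp* no relation was detectable over the 12 libraries (Pearson r = 0.062, permutation p = 0.848, adjusted p = 0.946 over all 45 pairs; Spearman rho = 0.077, permutation p = 0.819, adjusted p = 0.960). The r was 0.21 without Homo 3 and WT 1, the libraries farthest from the median of *Arntl*, and 0.058 in the 7 libraries with fewer genes. The other 5 libraries are too few for a correlation. *Arntl* and *Nr1d1* leaned the same way (r = 0.48, permutation p = 0.114, adjusted p = 0.520; rho = 0.49, permutation p = 0.112, adjusted p = 0.5004), but r was 0.023 without the same 2 libraries. It was 0.77 in the 7 libraries (permutation p = 0.0431, unadjusted) and 0.51 on deviations from the means of genotype and library set. *Arntl* and *Nr1d2* gave r = -0.14 (permutation p = 0.674, adjusted p = 0.867; rho = -0.36, permutation p = 0.245, adjusted p = 0.697; -0.14 without Homo 3 and WT 1, and 0.0087 in the 7 libraries). The hour of killing is unknown, and its part in these values was not tested.

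Of the other clock genes *Per1* had the highest r with *Arntl* and *Per2* the lowest, both being targets of the same activator. The 3 libraries highest in *Arntl* (WT 1 at 5.70, Homo 4 at 5.46 and Homo 6 at 4.85 FPKM) were also the 3 highest in *Per1* (16.8, 14.6 and 13.8 FPKM). For *Arntl* and *Per1* r was 0.71 (permutation p = 0.0101, adjusted p = 0.152) and rho 0.58 (permutation p = 0.0515, adjusted p = 0.324), with r = 0.69 without Homo 3 and WT 1 and 0.84 in the 7 libraries. For *Arntl* and *Per2* r was -0.56 (permutation p = 0.0625, adjusted p = 0.469) and rho -0.63 (permutation p = 0.0323, adjusted p = 0.291), with r = -0.57 without those libraries and -0.43 in the 7. *Per1* and *Per2* themselves gave r = -0.45 (permutation p = 0.139, adjusted p = 0.520; rho = -0.32, permutation p = 0.307, adjusted p = 0.738), and -0.036 without Homo 4 and WT 1. None of these relations passed the correction over the 45 pairs. *Arntl* and *Per3* gave r = 0.038 (permutation p = 0.912, adjusted p = 0.954; rho = 0.17, permutation p = 0.590, adjusted p = 0.804; r = -0.15 without Homo 3 and WT 1). *Arntl* and its dimer partner *Clock* gave r = 0.43 (permutation p = 0.162, adjusted p = 0.520; rho = 0.31, permutation p = 0.333, adjusted p = 0.738) over all libraries and 0.83 in the 7. Without Homo 3 and Homo 6 the r of *Clock* and *Arntl* was -0.078, so the value over all libraries depended on those libraries. On deviations from the means of genotype and library set it was 0.70.

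*Dbp* and *Cry2* were the most closely related pair of the 45, and the only one to pass the correction on either measure. WT 2 and Homo 1 were highest in both (17.7 and 14.2 FPKM of *Dbp*, 19.5 and 18.6 FPKM of *Cry2*), and WT 3 and WT 4 lowest in both (2.28 and 3.70 FPKM of *Dbp*, 6.58 and 8.24 FPKM of *Cry2*). This pair was singled out after its value was seen, with r = 0.90 (permutation p = 0.00011, adjusted p = 0.00495) and rho = 0.85 (permutation p = 0.00092, adjusted p = 0.041). The r was 0.81 without WT 2 and WT 3, 0.82 in the 7 libraries and 0.86 on deviations from the means of genotype and library set. Of the 14017 genes tested, 3 others had a higher r with *Dbp* than *Cry2* did. The windows shown above held an E-box variant in *Cry2*, while that of *Dbp* held none of the letters searched. *Dbp* shares 539 exon bases (18.0% of its own) with *Sphk2* and *Cry2* 295 (4.67%) with *D930015M05Rik*, both on the opposite strand, and the part of these genes in the pair was not tested. *Sphk2* was lowest in WT 3 (6.09 FPKM), as the pair was, and highest in Homo 1 (16.0 FPKM), with 13.4 FPKM in WT 2, where *Dbp* and *Cry2* were highest. Endothelial markers were correlated with *Dbp*, short of the correction (r of the list's mean log2 level with *Dbp* 0.75, permutation p = 0.0051, adjusted p = 0.135 over the 80 relations of a list and a clock gene; rho = 0.78, permutation p = 0.0037, adjusted p = 0.175). That r was 0.86 without Homo 2 and WT 1 and 0.79 in the 7 libraries. With *Cry2* the endothelial markers gave r = 0.57 (permutation p = 0.0506, adjusted p = 0.523; rho = 0.64, permutation p = 0.0295, adjusted p = 0.318), with 0.78 without the same libraries and 0.50 in the 7. All 5 endothelial markers were above 0 in every library, with sums of 22.5 to 38.8 FPKM in WT and 25.2 to 50.02 FPKM in Homo, and their part in the pair was not tested. Arcuate markers were also correlated with *Cry2*, short of the correction (r = 0.73, permutation p = 0.0027, adjusted p = 0.106; rho = 0.73, permutation p = 0.0101, adjusted p = 0.201), with r = 0.37 without WT 3 and WT 4 and 0.27 in the 7 libraries. With *Dbp* they gave r = 0.55 (permutation p = 0.0675, adjusted p = 0.528), with -0.073 without the same libraries and -0.27 in the 7.

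With its classical partners *Dbp* showed little. For *Dbp* with *Per1*, *Per2*, *Per3*, *Nr1d1* and *Nr1d2* r was 0.23, 0.29, 0.47, -0.053 and 0.12 (permutation p between 0.128 and 0.870, adjusted p between 0.520 and 0.946), and rho 0.44, 0.25, 0.27, 0.028 and 0.049 (permutation p between 0.155 and 0.939, adjusted p between 0.537 and 0.960). Without the 2 libraries farthest from the median of the other gene r was 0.41, -0.014, -0.065, -0.095 and 0.19, and in the 7 libraries it was -0.13, 0.31, 0.52, 0.00023 and 0.087. The value for *Per3* thus rested on the libraries left out, WT 2 and WT 5, of which WT 2 was the highest of all in both genes.

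*Per2* and *Nr1d2* were the next closest pair, with high libraries in both genotypes. Homo 1, WT 5 and Homo 7 were highest in *Nr1d2* (30.8, 15.9 and 14.8 FPKM) and were all among the 4 highest in *Per2* (2.57, 2.36 and 2.37 FPKM). This pair, also singled out after its value was seen, had r = 0.72 (permutation p = 0.00396, adjusted p = 0.0891) and rho = 0.79 (permutation p = 0.00376, adjusted p = 0.0846), with r = 0.76 without Homo 1 and Homo 2 and 0.68 in the 7 libraries. Of the 80 relations of a list and a clock gene, 6 had an unadjusted permutation p under 0.05 for r, and 0 passed the correction. The relations described were picked with their values known. Among the 6 was also that of tanycyte and ependymal markers with *Clock* (r = 0.59, permutation p = 0.0464, adjusted p = 0.523; rho = 0.34, permutation p = 0.279). Astrocyte markers were correlated with both genes of the pair, short of the correction over the 80 relations. The mean log2 level of *Gfap*, *Aqp4*, *Aldh1l1*, *Slc1a3* and *Gja1* gave r = 0.79 with *Nr1d2* (permutation p = 0.00104, adjusted p = 0.0832; rho = 0.74, permutation p = 0.0074, adjusted p = 0.196; 0.57 without Homo 1 and Homo 7). With *Per2* it gave r = 0.69 (permutation p = 0.0145, adjusted p = 0.232; rho = 0.63, permutation p = 0.0313, adjusted p = 0.318; 0.53 without the same libraries). In the 7 libraries these were 0.81 and 0.69. All 5 astrocyte markers were above 0 in every library and summed to 93.5 to 168 FPKM in WT and 106 to 202 FPKM in Homo. Markers of the suprachiasmatic nucleus gave a like value with *Per2* (r = 0.68, permutation p = 0.0142, adjusted p = 0.232; rho = 0.63, permutation p = 0.0318, adjusted p = 0.318; 0.58 without Homo 2 and WT 4, and 0.62 in the 7 libraries). With *Nr1d2* these markers gave r = 0.48 (permutation p = 0.114, adjusted p = 0.534; rho = 0.71, permutation p = 0.0131, adjusted p = 0.210; 0.55 without the same libraries and 0.37 in the 7). Oligodendrocyte markers gave r = 0.57 with *Nr1d2* (permutation p = 0.0523, adjusted p = 0.523; rho = 0.78, permutation p = 0.00438, adjusted p = 0.175; 0.51 without WT 4 and WT 5 and 0.60 in the 7 libraries), and summed to 86.8 to 510 FPKM in WT and 146 to 368 FPKM in Homo, with *Mog* at 0 in 1 library. The part of astrocyte, oligodendrocyte or suprachiasmatic RNA in the *Per2* and *Nr1d2* values was not tested, and in such dissected tissue fewer cells of a type and less RNA per cell cannot be told apart. Over all 45 pairs 31 r values were above 0 and 14 below, and 4 had an unadjusted p under 0.05.

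**Figure D3:**
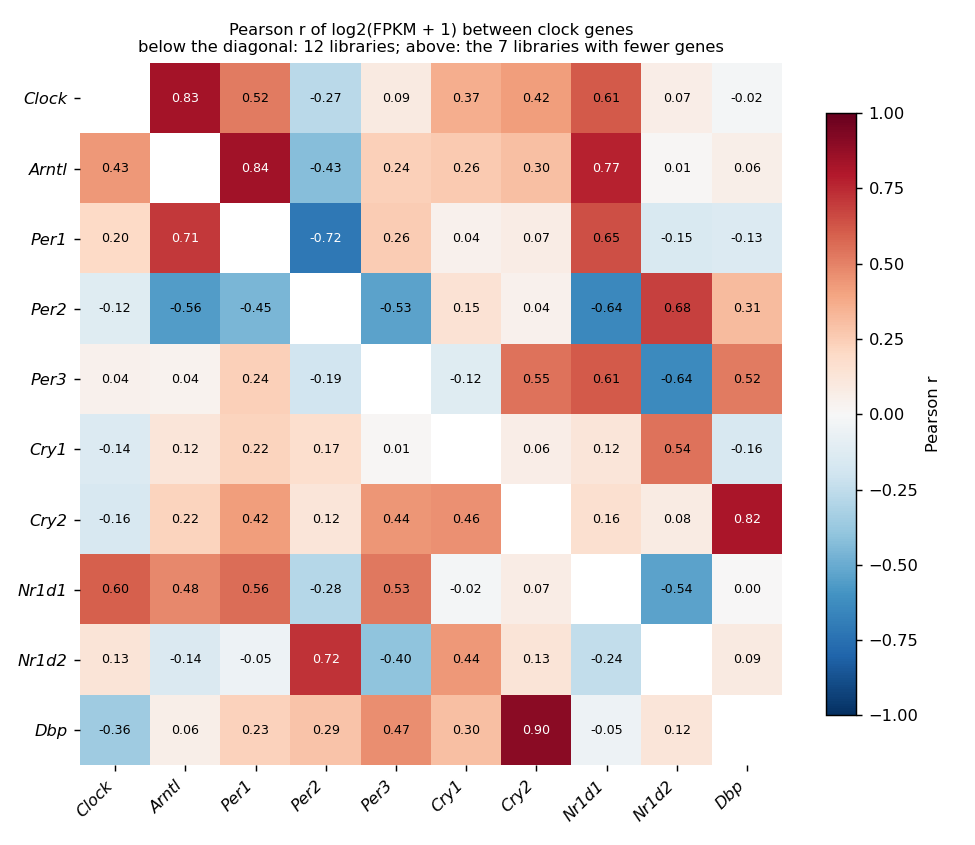
Pearson r of log2(FPKM + 1) for the 45 pairs of clock genes, red above and blue below 0, with the 12 libraries below the diagonal and the 7 libraries with fewer genes above it. *Cry2* with *Dbp* (0.90 and 0.82), *Per2* with *Nr1d2* (0.72 and 0.68) and *Arntl* with *Per1* (0.71 and 0.84) are red on both sides of the diagonal, and *Arntl* with *Dbp* is near 0 in both (0.06 and 0.06).

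**Figure D4:**
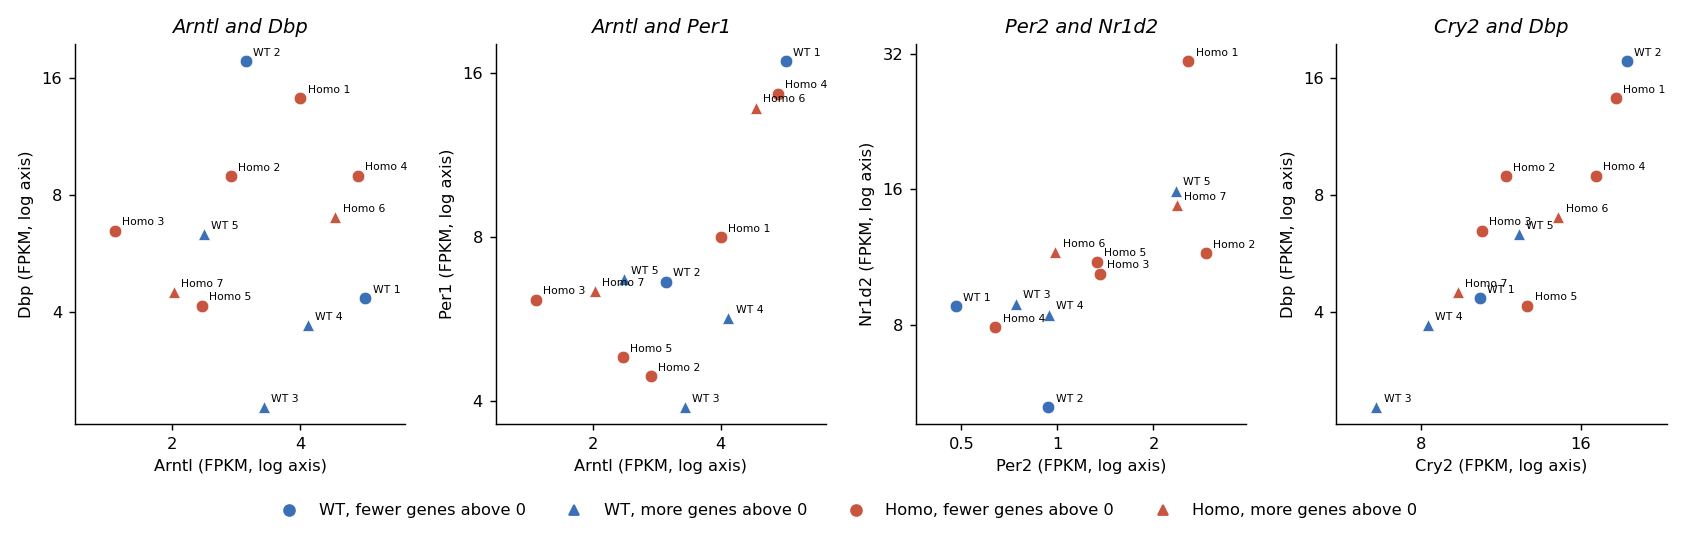
FPKM of 4 pairs of clock genes in the 12 libraries on log axes, WT in blue and Homo in red, with circles for the 7 libraries with fewer genes above 0 and triangles for the 5 with more. *Dbp* is scattered over *Arntl*, WT 1, Homo 4 and Homo 6 stand apart at the upper right of *Arntl* and *Per1*, *Nr1d2* is higher where *Per2* is, and *Dbp* follows *Cry2* from WT 3 up to WT 2.

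The genes most alike to 3 of the clock genes over the 12 libraries were named by their r alone, with no test, since they are the top of 14017. For *Arntl* they were *Ndufaf6* (r = 0.85), *3110056K07Rik* (0.85) and *Cacna1g* (0.84), and for *Dbp* they were *Tusc2* (0.94), *Fzr1* (0.91) and *Ppm1f* (0.91). For *Per2* they were *Rora* (0.87), which encodes the activator that competes with the REV-ERB proteins for the same element, *Ccpg1* (0.87) and *Slc1a3* (0.86), the astrocyte glutamate transporter and a marker in the list above.

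The wider clock network gave no call either. Of 11 accessory factors 9 were tested and 0 were called in either direction or had an unadjusted p under 0.05 (limma), with 4 higher in Homo and a median log2 fold change of -0.015 beside -0.0062 over all genes. *Rora* had the largest value, at 0.70 (3.72 ± 1.71 FPKM over WT against 7.03 ± 4.09 over Homo, SD, limma adjusted p = 0.899). *Arntl2*, which encodes BMAL2, had the smallest, at -0.46 (limma adjusted p = 0.954), and ranged from 0 to 21.8 FPKM within WT. Of 12 enzymes and other proteins that act on clock proteins all 12 were tested and 0 were called (limma; 1 had an unadjusted p under 0.05), with 4 higher in Homo and a median of -0.056. *Timeless* had the smallest value of that list, at -0.78 (limma adjusted p = 0.899), and *Fbxw11*, a ligase subunit acting on PER proteins, the largest, at 0.43 (limma adjusted p = 0.908).

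Among 10 genes known as outputs of the clock 0 were called, and 0 had an unadjusted p under 0.05 (limma), with 7 higher in Homo and a median of 0.21. The largest value was that of *Gm129*, the older name under which the table lists *Ciart*, a repressor of CLOCK and BMAL1, at 0.94 (2.14 ± 1.54 FPKM over WT against 6.02 ± 5.31 over Homo, SD, limma adjusted p = 0.909; exact permutation p = 0.164). The smallest was that of *Lonrf3*, at -0.27 (limma adjusted p = 0.964). Of 9 glucocorticoid targets and immediate early genes, read because such inputs also drive *Per1* and *Per2*, 7 were tested (not *Zbtb16* and *Fosb*) and 0 were called or had an unadjusted p under 0.05, with 5 higher in Homo and a median of 0.047. *Fos*, a mark of recent neuronal activity, had the largest value at 0.50 (limma adjusted p = 0.923), and *Sgk1*, a glucocorticoid target, the smallest at -0.20 (limma adjusted p = 0.973).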

How the data were processed

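Total RNA from the laser-captured ARC of 5 WT and 7 Homo mice was amplified by the authors across the whole transcriptome, sheared to 200 bp and sequenced as bar-coded libraries. The authors deposited 1 table of FPKM values. The submitters' processing notes name TopHat2 2.0.8, Cufflinks 2.2.1 and GRCm38, and strand use and any further scaling are not given in the sources used here. For Homo 4 and Homo 5 the column name has 1 letter too many, so genotype and number made the match, and 0 columns were left over.

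FPKM are not counts, so limma 3.58.1 in R 4.3.3 (trend and robust variances) was fitted on log2(FPKM + 1), genotype as the only term, over 14017 genes with a mean of at least 1 FPKM, with Benjamini-Hochberg adjustment. The fit was tested on simulated data. Single genes were also compared by two-sided exact permutation, and pairs by 100000 permutations with Benjamini-Hochberg adjustment over 45 pairs. P-values set a difference or a correlation against the spread between these libraries. That spread holds both the mice and the making of their libraries, which cannot be told apart here. Library sets were split at the largest gap in genes above 0. Libraries were not treated as paired by replicate number, except in the replicate block given among the alternatives.

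The members, gene lists and named genes (the 10 members, list genes that were called, had an unadjusted p under 0.05 or had the largest or smallest fold change, and the 3 genes most like *Arntl*, *Per2* and *Dbp*) were chosen with earlier results of these data known. Some list genes that this rule covers are not reported here. The order of levels and the marker correlations were added after values were seen. Positions are from GENCODE release 21 and promoter sequences from RefSeq. Alternatives covered the pseudocount, filters, scaling, array weights, library sets, a replicate block and each library left out.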

Additional observations from a re-analysis of the deposited data

Results flagged for a closer look

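In 4 of 20 groups (10 genes in each genotype) 1 library stood far from the others by Dixon's criterion, applied to FPKM without logs. The criterion is set for normally distributed values, which FPKM need not be. The 4 groups are therefore not set against a rate by chance. In each of them the library concerned was the highest of its genotype. *Per1* in WT 1 was 16.8 FPKM, with the next WT library at 6.68 FPKM. *Per2* in WT 5 was 2.36 FPKM, with the next at 0.939 FPKM. *Dbp* in WT 2 was 17.7 FPKM, with the next at 6.34 FPKM. *Nr1d2* in Homo 1 was 30.8 FPKM, with the next Homo library at 14.8 FPKM. The libraries concerned were 4 different ones. The genotype difference of *Nr1d1* differed between the library sets by 1.27 on the log2 scale (limma interaction, unadjusted p = 0.00669, adjusted p = 0.876), being -0.71 for the 7 libraries that listed fewer genes and 0.56 for the 5 that listed more. The library set is not a label of the study, and what it stands for was not tested.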

How the results depend on the processing

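No clock gene was called under any of the alternatives run, and over them the lowest adjusted p of a clock gene (limma) was 0.726. The number of genes called over the whole table was 1 over all libraries, 6 in the 7 libraries with fewer genes above 0, 19 in the 5 with more, 2 with a replicate block and between 1 and 3 with 1 library left out (3 without WT 2 and 2 without Homo 4). Of 216 alternative values of the clock genes' log2 fold changes 203 had the sign of the value reported and 13 the other sign. In the 5 libraries *Clock* was 0.0069, *Per3* 0.10 and *Nr1d1* 0.56. In the 7 libraries *Per1* was -0.55, *Cry1* -0.15, *Cry2* -0.049 and *Dbp* -0.15. With array weights *Nr1d1* was 0.042, and with the replicate block *Per1* was -0.021. With 1 library left out *Per1* ranged from -0.088 to 0.38, *Cry1* from -0.018 to 0.27, *Clock* from -0.25 to -0.055, *Arntl* from -0.29 to -0.038, *Per2* from 0.27 to 0.57, *Per3* from -0.59 to -0.18, *Cry2* from 0.12 to 0.48, *Nr1d1* from -0.32 to -0.094, *Nr1d2* from 0.28 to 0.67 and *Dbp* from 0.10 to 0.73. *Arntl*, *Per2* and *Nr1d2* kept their sign in every alternative. At a mean of at least 5 FPKM 4 of the clock genes (*Arntl*, *Per2*, *Per3* and *Cry1*) were not tested. The r of *Arntl* and *Dbp* was -0.073 after upper-quartile scaling and ranged from -0.017 to 0.18 with 1 library left out. The r of *Per2* and *Nr1d2* in the 7 libraries (0.68) and the rho of *Arntl* and *Per1* (0.58) no longer passed an unadjusted p of 0.05, with fewer libraries and with ranks. The causes of the other changes were not tested.

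WT and Homo share replicate numbers 1 to 5, but same-numbered libraries did not deviate together (r of their deviations between -0.054 and 0.029), and 0 of the 5 numbers had their closest match in their own number. WT 3, WT 4 and WT 5 are of the set with more genes, and Homo 3, Homo 4 and Homo 5 of the set with fewer. The deviations still hold that difference, so these values show no pairing by number but cannot exclude it. The replicate block, in which Homo 6 and Homo 7 have no partner, gave the count of 2 above. Depth limits the genes with few fragments most. By the rough estimate above these were *Per2*, followed by *Arntl*, *Cry1* and *Dbp*. The part of depth in their spread and relations was not tested.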
